A study of Mus musculus with 13 samples.

Results

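AP-1 is a family of paired transcription factors, and 8 of its genes, Fos, Fosb, Fosl1, Fosl2, Jun, Junb, Jund and Atf3, are described here together with Egr1, a zinc finger factor induced by many of the same stimuli. Members were chosen by name. For each gene, probe sets to which the platform annotation gave that symbol alone were taken, and where there were several, the one brightest on average over all arrays was used. The 9 genes had 13 such probe sets, and all 9 passed the filter on low values (a log2 value above 2.38 on at least 2 arrays), out of 12205 genes tested in all.

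Gene expression was measured on 13 Affymetrix mouse arrays of UG26-1B6, a single stromal clone of mouse urogenital ridge, taken at midgestation. Cells of day 0 (n = 3) had been detached with trypsin and washed, without LSK cells. The medium control (n = 2) was the same clone 24 h after its medium was replaced, also without LSK cells. In the co-culture groups confluent stroma was irradiated with 30 Gy and then kept for 1 day (n = 3), 2 days (n = 3) or 3 days (n = 2) with LSK cells, which lack lineage markers, carry Sca-1 and c-Kit and are rich in blood stem and progenitor cells. Sample titles name no genotype for any group. The sources used here do not say if cells of day 0 or the medium control received radiation, or by what means stroma and LSK cells were parted for RNA isolation. The medium control therefore matches day 1 of co-culture in time, while irradiation cannot be told apart from the presence of LSK cells if the controls were not irradiated. The replicates are called biological in the titles and technical in the design text, so the spread that p-values rest on here may be technical.

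Fos, Fosb, Fosl1 and Fosl2 proteins cannot pair among themselves and bind DNA with a Jun protein, Jun, Junb or Jund, through a leucine zipper. Fos, Fosb, Jun, Junb, Atf3 and Egr1 are immediate early genes: kinase cascades that start at growth factor receptors, stress or cell detachment switch them on within minutes from factors already present in the cell, and their RNAs are short-lived. In fibroblasts and stroma the family is known for regulating proliferation, matrix proteases and matrix genes.

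Levels below are the deposited log2 values. A difference is a log2 difference of group means with its standard error, tested with limma over all 13 arrays, with p-values adjusted by Benjamini-Hochberg over 12205 genes and a threshold of 0.05. A gene that passed is called. Values of different genes come from different probes and are not set against each other.

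Some arrays stood apart. The best correlation of day 2 replicate 1 with another array was 0.785, and that of the others was 0.936 or more. Its Gapdh 3′ probe set lay 8.96 above the 5′ one, a gap that was 5.79 on day 3 replicate 2 and 2.15 to 3.82 on the others, so results that rest on day 2 replicate 1 are given with and without it. Spiked-in poly-A control RNA, seen by its 3′ probe sets, averaged 5.45, 6.41 and 8.55 on the day 0 arrays, 4.63 and 4.88 on the medium arrays and 10.07 to 14.44 on the 8 co-culture arrays. The mean level of 14 blood cell markers was 2.86 to 2.97 on day 0, 2.76 to 2.84 in medium, 3.83 to 4.68 on day 1, 5.09 to 8.60 on day 2 and 5.94 to 6.64 on day 3. Ptprc, the pan-leukocyte marker CD45, lay at the lowest value of the table, 2.28, on all day 0 and medium arrays, and Kit stayed between 2.28 and 2.38 on every array. Of 12 stromal and mesenchymal markers, 11 exceeded 5 on every array of day 0, medium, day 1 and day 3, and 6 did so on every array of day 2. Col1a2, Col3a1, Pdgfra, Postn and Vcam1 lay under 5 on day 2 replicate 1 alone, at 2.78 to 4.71. Among the day 2 arrays, that one read lowest for every tested stromal marker except S100a4 and Vim. It read highest of them for all 11 tested blood markers, with Ptprc at 10.93 against 7.20 and 6.94. The mean level of the stromal markers was 9.53 to 10.90 on day 0, 10.05 to 10.18 in medium, 8.98 to 9.93 on day 1, 6.66 to 9.18 on day 2 and 9.21 to 9.44 on day 3. For the 11 that were tested the median difference from day 0 was -0.18 in medium, -0.89 on day 1, -2.02 on day 2 (-1.36 without day 2 replicate 1) and -1.22 on day 3, and limma called Cxcl12 and Vcam1 lower on day 2 (-3.78 and -4.29, adjusted p = 0.0289 and 0.0478). The 4 epithelial markers averaged 2.48 to 3.44 over all arrays. Of 4 endothelial markers only Kdr was tested, at 5.89 to 6.66 on day 0, 10.40 and 10.42 in medium and 8.59 to 9.19 on day 1. Spike level, blood markers and stromal markers moved with the groups, and their part in the results below was not tested. In a harvested mixture, fewer cells of a type and less RNA per cell cannot be told apart.

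No member was called by limma in any of the 7 comparisons. Against day 0, 0 of 9 were called in medium (0.328% of all genes tested), on day 1 (2.15%), on day 2 (2.26%) and on day 3 (0.819%). Between co-culture and medium on day 1 the count was also 0 (5.2% of genes), as it was for day 2 against day 1 and for day 3 against day 1 (0.00819% of genes each). At an unadjusted p under 0.05 limma counted 2 members for medium, 2 for day 1, 4 for day 2 and 2 for day 3 against day 0, where the shares of all genes were 9.45%, 17.3%, 26.3% and 13.8%. It counted 1 for day 1 against medium (20.9% of genes), 1 for day 2 against day 1 (12.6%) and 0 for day 3 against day 1 (2.93%). Without day 2 replicate 1, limma called 1 member in medium (1.36% of genes) and 1 on day 1 (10.6%) against day 0, Atf3 both times. It then called 0 on day 2 (2.48%) and day 3 (7.69%) against day 0, 0 for day 1 against medium (17.2%) and 0 for day 2 (0.00819%) and day 3 (0.221%) against day 1. At an unadjusted p under 0.05 that fit counted 4 members in medium (16.9% of genes), 5 on day 1 (27.8%), 4 on day 2 (22.8%) and 4 on day 3 (24.9%) against day 0. It counted 2 for day 1 against medium (32% of genes), 0 for day 2 against day 1 (8.82%) and 1 for day 3 against day 1 (7.12%). Of the 4 comparisons with day 0, all rest on the same 3 day 0 arrays. Those cells had been detached with trypsin and washed. The part of this handling in any difference from day 0, here and below, was not tested.

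Day 0 had the highest mean of the 5 groups for 6 of 9 members (Fos, Fosb, Fosl2, Jun, Atf3 and Egr1), as it had for 21% of all genes, and for the same 6 with day 2 replicate 1 left out (20.2% of genes). The medium control had the lowest mean for Junb and Atf3 (29.1% of genes). With day 2 replicate 1 left out it had the lowest mean for Fosl2 and Egr1 as well, 4 of 9 members (33.2% of genes). Fosl1 and Jund had their lowest mean on day 0, without day 2 replicate 1 (21.5% of genes). The median difference of the 9 members from day 0 was -1.06 in medium, -0.74 on day 1, -2.08 on day 2 and -0.48 on day 3, beside medians of all genes of 0.00, 0.00, -0.29 and 0.00. The members' median on day 2 was -1.03 without day 2 replicate 1, beside -0.11 for all genes. On each array 32.5% to 45.8% of probe sets lay at the lowest value of the table, so all-gene medians include many genes near it. Centring arrays on probe sets above 2.38 on every array moved the all-gene median on day 2 from -0.29 to 0.59. Probe sets measured throughout thus fell further on day 2 than the all-gene median shows. A median of genes at the members' levels was not computed.

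**Figure D1:**
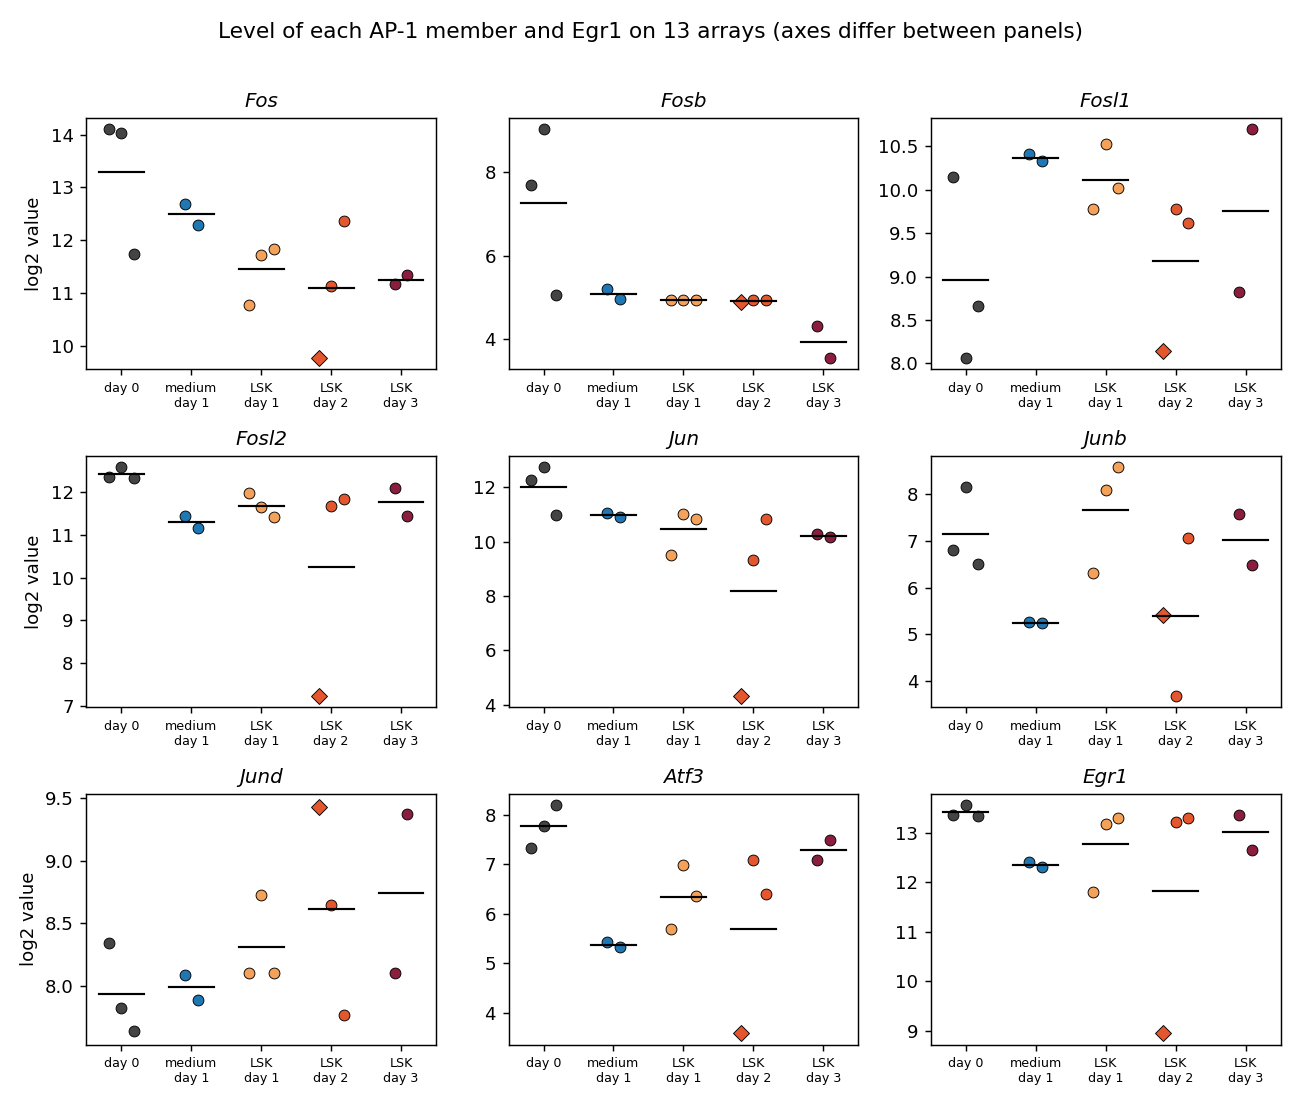
Log2 level (vertical axis, its range differing between panels) of Fos, Fosb, Fosl1, Fosl2, Jun, Junb, Jund, Atf3 and Egr1 on the 13 arrays by group; each point is an array, the bar is the group mean and the diamond is day 2 replicate 1. Day 0 replicate 3 lies below the other day 0 arrays for Fos, Fosb and Jun, and all 3 day 0 arrays of Fosl2 lie above every later array.

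Fos encodes the dimer partner after which the Fos-type proteins are named, and its RNA is among the fastest to rise and decay. It measured 14.10, 14.03 and 11.75 on the day 0 arrays, 12.69 and 12.29 in medium, 10.78, 11.73 and 11.83 on day 1, 9.77, 11.13 and 12.37 on day 2 and 11.17 and 11.34 on day 3. Day 0 replicates 1 and 2 lay above all 11 other arrays, and day 0 replicate 3 lay among the medium and co-culture arrays. The difference from day 0 was -0.80 ± 0.84 in medium (adjusted p = 0.969, limma), -1.85 ± 0.75 on day 1 (adjusted p = 0.240), -2.20 ± 0.75 on day 2 (adjusted p = 0.119) and -2.04 ± 0.84 on day 3 (adjusted p = 0.324). Day 2 replicate 1 was the lowest array, and the day 2 difference without it was -1.54 ± 0.72 (adjusted p = 0.239, limma). Groups overlapped with day 0 except on day 3. By mean the order was day 0, medium, day 1, day 3 and day 2, and among neighbours in that order only medium and day 1 did not overlap.

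Fosb encodes a further Fos-type partner. It measured 7.69, 9.02 and 5.06 on day 0, 5.19 and 4.96 in medium, 4.94 on all 3 day 1 arrays, 4.88, 4.94 and 4.94 on day 2 and 4.31 and 3.55 on day 3. Only day 0 replicates 1 and 2 lay above 5.19, and 5 arrays shared the value 4.94, although 3 arrays lay lower. With such tied values, and a standard deviation of 0 on day 1, the sizes and errors given for Fosb are uncertain. Of the 9 members it had the largest difference on day 3, -3.33 ± 0.87 from day 0 (10.1-fold on the linear scale, adjusted p = 0.129, limma), and its difference was -2.18 ± 0.87 in medium (adjusted p = 0.451), -2.32 ± 0.78 on day 1 (adjusted p = 0.161) and -2.34 ± 0.78 on day 2 (adjusted p = 0.114). Leaving out day 0 replicate 3 brought Fosb past the threshold in all 4 comparisons with day 0, with log2 differences of -3.28 in medium (adjusted p = 0.0347, limma), -3.42 on day 1 (adjusted p = 0.0103), -3.44 on day 2 (adjusted p = 0.0104) and -4.43 on day 3 (adjusted p = 0.00819), in fits that called 0.139%, 1.13%, 1.02% and 0.451% of all genes. Leaving out day 0 replicate 2, the highest array, moved the same differences the other way, to -1.30 (adjusted p = 1, limma), -1.44 (adjusted p = 0.404), -1.46 (adjusted p = 0.280) and -2.45 (adjusted p = 0.260).

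Jun encodes the main Jun-type partner, whose protein is activated by JNK kinases. It measured 12.25, 12.74 and 10.99 on day 0, 11.05 and 10.92 in medium, 9.52, 11.02 and 10.83 on day 1, 4.33, 9.33 and 10.83 on day 2 and 10.28 and 10.15 on day 3. Again day 0 replicates 1 and 2 were the highest of the 13 arrays, and day 2 replicate 1 was by far the lowest. The day 2 difference from day 0 was -3.83 ± 1.36 (adjusted p = 0.129, limma) and, without day 2 replicate 1, -1.91 ± 0.64 (adjusted p = 0.136, limma). The differences in medium, on day 1 and on day 3 were -1.01 ± 1.52, -1.53 ± 1.36 and -1.78 ± 1.52 (adjusted p = 1, 0.685 and 0.702). The second Jun probe set gave a day 2 difference of -3.13 ± 1.13 in a fit of all 25216 probe sets (adjusted p = 0.150, limma) and was likewise lowest on day 2 replicate 1, at 3.74. On day 0 it read 9.79, 10.33 and 9.46, all above its highest later value of 8.93, so on this probe set day 0 replicate 3 did not fall among the later arrays.

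For Fos, Fosb and Jun, day 0 replicate 3 lay more than 1 log2 unit below both other day 0 arrays, a pattern picked after the values were seen that 1.23% of all genes showed. The second Jun probe set did not show it, since its day 0 replicate 3 lay within 1 log2 unit of both others. The gap between the mean of replicates 1 and 2 and replicate 3 was 2.32 for Fos, 3.30 for Fosb and 1.50 for Jun. It was 0.98 for Junb, 0.45 for Jund, 0.44 for Fosl1, 0.15 for Fosl2, 0.12 for Egr1 and -0.64 for Atf3. The poly-A spike of day 0 replicate 3 was 8.55 against 5.45 and 6.41, and the part of this difference was not tested.

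These 3 genes were grouped by their day 0 values. The same arrays enter the correlations between them, which are therefore no separate support for the grouping. Pearson's r between Fos and Jun was 0.84 over 13 arrays and 0.93 over 12 without day 2 replicate 1, that between Fos and Fosb was 0.78 and 0.86, and that between Fosb and Jun was 0.46 and 0.82. These arrays share 5 groups and a scaling step, and the values are descriptions.

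**Figure D2:**
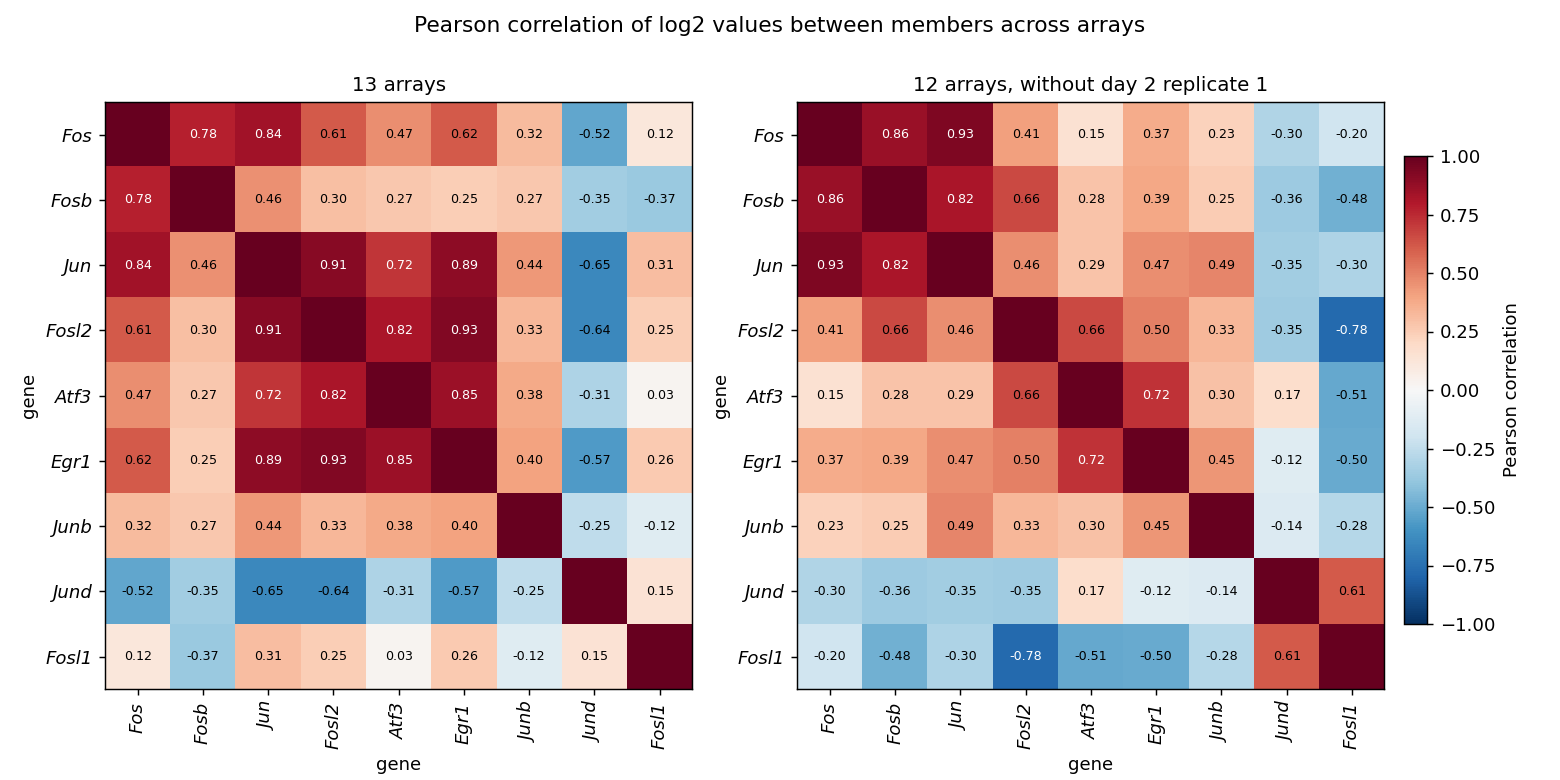
Pearson correlation of log2 values for each pair of members (both axes list the genes, colour and printed number give r), over 13 arrays on the left and over 12 without day 2 replicate 1 on the right. The 3 pairs among Fos, Fosb and Jun have r of 0.46 to 0.84 on the left and 0.82 to 0.93 on the right; Fosb and Jun go from 0.46 to 0.82, and Jun and Fosl2 from 0.91 to 0.46.

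The promoters of Fos, Fosb, Jun and Atf3 are shown because these genes are classical targets of CREB, ATF and AP-1 factors, and because 3 of them lay highest on the same day 0 arrays. RefSeq's promoter table (build GRCm38.p6) held 7 of the 9 members, and Fosl1 and Egr1 were not used. Each line gives the 100 bases before the annotated start, 5′ to 3′ on the gene's strand, with a match to a searched motif in capitals.
Fos, chr12:85473790-85473889, plus strand: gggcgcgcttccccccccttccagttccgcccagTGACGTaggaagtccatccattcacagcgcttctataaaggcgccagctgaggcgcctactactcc
Fosb, chr7:19310046-19310145, minus strand: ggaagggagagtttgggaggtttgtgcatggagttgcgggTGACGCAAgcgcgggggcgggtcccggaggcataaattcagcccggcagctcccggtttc
Jun, chr4:95052223-95052322, minus strand: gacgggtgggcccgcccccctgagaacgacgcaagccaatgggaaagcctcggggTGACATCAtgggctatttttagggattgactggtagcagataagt
Atf3, chr1:191183334-191183433, minus strand: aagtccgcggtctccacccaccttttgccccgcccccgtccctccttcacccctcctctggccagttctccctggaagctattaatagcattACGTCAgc

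Motifs were picked after these sequences had been seen and were searched on both strands of the 250 bases before the start. Fos held the CRE core TGACGT at -66 to -61, counted from -1 as the last base before the start, and Atf3 held it on the opposite strand at -8 to -3; 6.47% of all 32851 promoters of that length held it. Jun held TGACATCA at -45 to -38 (2.93% of promoters), and Fosb held TGACGCAA at -60 to -53 (0.438% of promoters). The full CRE TGACGTCA, which contains TGACGT, the AP-1 site TGACTCA, the Egr1 site GCGTGGGCG and the CArG box were in 1.55%, 4.46%, 0.536% and 1.47% of promoters and in none of the 7 members. Fosl2, Junb and Jund held no match to any motif searched. A match describes letters in a window, not a bound site. Bases farther upstream were not searched, so a missing match, such as that of the CArG box in Fos, holds for this window only.

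Fosl2 encodes Fra-2, a Fos-type protein with longer-lived expression. It measured 12.37, 12.59 and 12.33 on day 0, 11.44 and 11.16 in medium, 11.98, 11.65 and 11.42 on day 1, 7.24, 11.69 and 11.84 on day 2 and 12.11 and 11.44 on day 3. On the probe sets used for the tests it was the only member with every day 0 array above every later array, a pattern of 3.2% of all genes. The second Jun probe set showed it too. The second Fosl2 probe set did not, and it read only 2.29 to 3.05, near the lowest value of the table. On the probe set used, the differences of Fosl2 from day 0 were -1.13 ± 1.12 in medium (adjusted p = 0.951, limma) and -0.74 ± 1.01 on day 1 (adjusted p = 0.854). The mean of both probe sets gave -0.55 and -0.40. Without day 2 replicate 1 the same differences had errors of 0.24 and 0.21 and adjusted p-values of 0.0631 and 0.0604. On day 2 the difference was -2.17 ± 1.01 with that array and -0.66 ± 0.24 without it (adjusted p = 0.203 and 0.157, limma), and on day 3 it was -0.65 ± 1.12 (adjusted p = 0.916).

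Atf3, a stress-induced family member that can repress as a dimer with itself, measured 7.34, 7.78 and 8.20 on day 0, 5.43 and 5.32 in medium, 5.69, 6.99 and 6.35 on day 1, 3.58, 7.08 and 6.39 on day 2 and 7.09 and 7.49 on day 3. Every day 0 array lay above every medium, day 1 and day 2 array, and day 3 overlapped with day 0. The difference from day 0 was -2.40 ± 0.86 in medium (5.26-fold, adjusted p = 0.377, limma) and -1.42 ± 0.77 on day 1 (adjusted p = 0.401). Both passed without day 2 replicate 1, at -2.40 ± 0.40 (adjusted p = 0.0326, limma) and -1.42 ± 0.36 (adjusted p = 0.0422). In that fit the difference was -1.03 ± 0.40 on day 2 (adjusted p = 0.179), from -2.08 ± 0.77 with all arrays (adjusted p = 0.139), and -0.48 ± 0.40 on day 3 (adjusted p = 0.511).

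Egr1, the zinc finger factor induced through SRF and ETS proteins, measured 13.36, 13.57 and 13.35 on day 0, 12.42 and 12.31 in medium, 11.82, 13.19 and 13.31 on day 1, 8.95, 13.22 and 13.31 on day 2 and 13.37 and 12.65 on day 3. Both medium arrays lay below all day 0 arrays, and both were exceeded by all co-culture arrays except day 1 replicate 1 and day 2 replicate 1. The difference from day 0 was -1.06 ± 1.12 in medium (adjusted p = 0.972, limma) and -0.65 ± 1.00 on day 1 (adjusted p = 0.892). Without day 2 replicate 1 the medium difference was -1.06 ± 0.42 (adjusted p = 0.250, limma), and the day 2 difference went from -1.60 ± 1.00 (adjusted p = 0.317) to -0.16 ± 0.42 (adjusted p = 0.872).

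Junb, a Jun-type protein that often opposes Jun on growth genes, measured 6.80, 8.15 and 6.50 on day 0, 5.26 and 5.24 in medium, 6.31, 8.08 and 8.57 on day 1, 5.42, 3.70 and 7.05 on day 2 and 7.57 and 6.47 on day 3. The 2 medium arrays lay below every array of day 0, day 1 and day 3, and day 2 spread on both sides of them. The difference from day 0 was -1.91 ± 0.98 in medium (adjusted p = 0.622, limma), 0.50 ± 0.87 on day 1 (adjusted p = 0.925), -1.77 ± 0.87 on day 2 (adjusted p = 0.227) and -0.13 ± 0.98 on day 3 (adjusted p = 1).

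Fosl1 encodes Fra-1, a Fos-type protein that is itself an AP-1 target and typically follows Fos in time. It measured 10.14, 8.06 and 8.67 on day 0, 10.41 and 10.33 in medium, 9.78, 10.52 and 10.02 on day 1, 8.15, 9.78 and 9.61 on day 2 and 8.82 and 10.69 on day 3. Day 0 replicates 2 and 3 and day 2 replicate 1 were the lowest 3 arrays. The medium arrays lay above all day 0 arrays, by 1.41 ± 0.74 in the means (2.65-fold, adjusted p = 0.640, limma), and day 1 lay 1.15 ± 0.66 above day 0 with overlap (adjusted p = 0.437). Fosl1 and Fosl2 had an r of 0.25 over 13 arrays and -0.78 over 12.

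Jund, the Jun-type gene that most cells express without induction, had the smallest range, 7.64 to 9.43. It measured 8.35, 7.83 and 7.64 on day 0, 8.09 and 7.89 in medium, 8.11, 8.72 and 8.11 on day 1, 9.43, 8.65 and 7.77 on day 2 and 8.11 and 9.37 on day 3. Its highest values fell on day 2 replicate 1 and day 3 replicate 2, the arrays with the widest Gapdh gaps, and the part of that gap was not tested. Differences from day 0 ran from 0.05 ± 0.51 in medium (adjusted p = 1, limma) to 0.80 ± 0.51 on day 3 (adjusted p = 0.549), with a 95% interval of -0.34 to 1.94 on day 3.

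**Figure D3:**
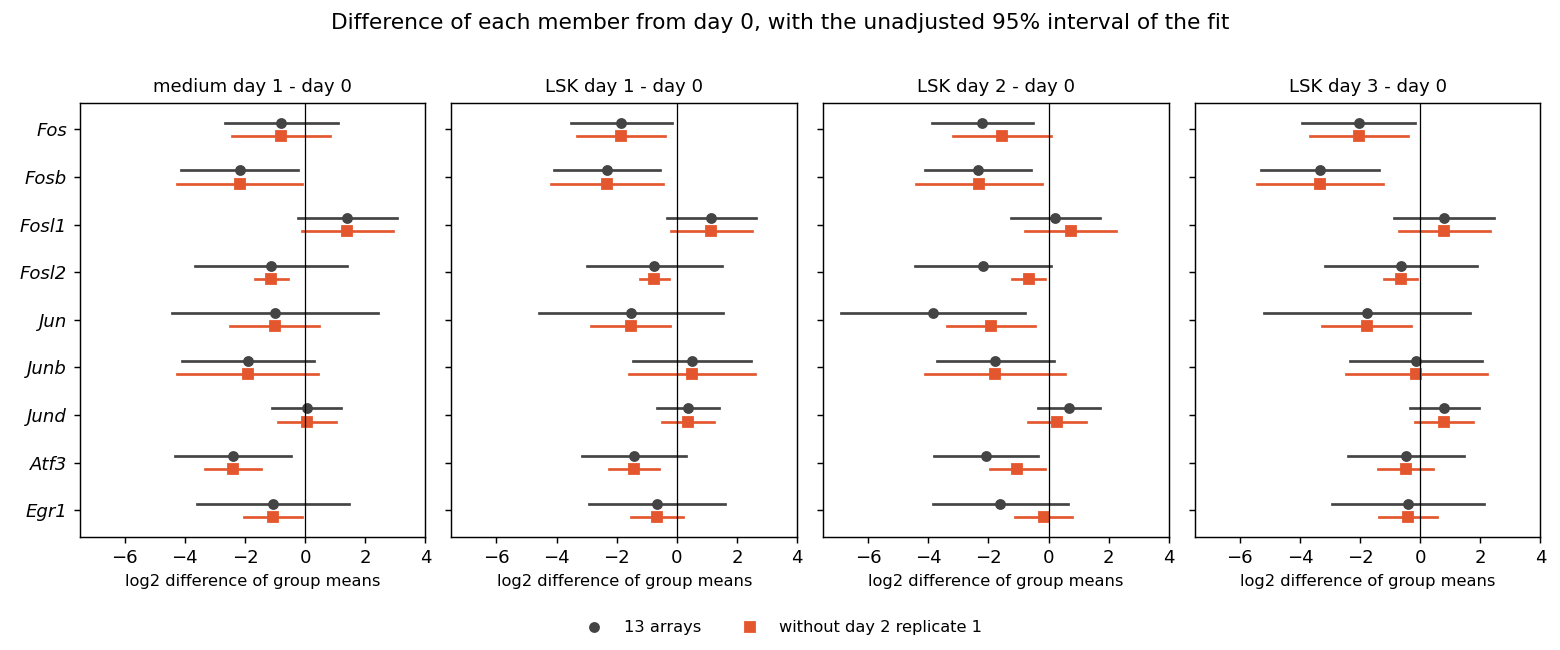
Difference in log2 group means from day 0 (horizontal axis) for each of the 9 members in medium and on days 1, 2 and 3 of co-culture; points are limma estimates and bars their unadjusted 95% intervals, over 13 arrays (circles) and without day 2 replicate 1 (squares). Without that array the bars of Fosl2, Jun, Atf3 and Egr1 are narrower, and the day 2 estimates of these genes lie closer to 0.

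Counting members whose arrays did not overlap with day 0 gave 5 of 9 for medium, 1 higher (Fosl1) and 4 lower (Fosl2, Junb, Atf3 and Egr1), where 43.3% of all genes did not overlap, 20.6% wholly higher and 22.7% wholly lower. For day 1 the count was 4, all lower (Fosb, Fosl2, Atf3 and Egr1; 39% of genes, 17.7% higher and 21.3% lower). For day 2 it was 5, all lower (Fosb, Fosl2, Jun, Atf3 and Egr1; 22.7% of genes, 6.46% higher and 16.2% lower). For day 3 it was 4, all lower (Fos, Fosb, Fosl2 and Jun; 35.6% of genes, 15% higher and 20.5% lower). Such counts depend on group size, which was 2 in medium and on day 3 and 3 elsewhere.

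Day 1 of co-culture and the medium control were both taken at 24 h, with and without LSK cells. If the medium control was not irradiated, irradiation cannot be told apart from LSK cells in this comparison. Junb had the largest difference, 2.41 ± 0.98 higher in co-culture (5.30-fold, 95% interval 0.22 to 4.60, adjusted p = 0.195, limma), with all 3 day 1 arrays above both medium arrays. Atf3 was 0.97 ± 0.86 higher (adjusted p = 0.638) and Jund 0.32 ± 0.51 higher (adjusted p = 0.878), also without overlap. The difference was -1.05 ± 0.84 for Fos (adjusted p = 0.582) and -0.14 ± 0.87 for Fosb (adjusted p = 1), again without overlap. These 5 of 9, 3 higher and 2 lower, stand beside 62.5% of all genes, 30.7% higher and 31.8% lower. Fosl2, Egr1, Jun and Fosl1 overlapped, at 0.39 ± 1.12, 0.41 ± 1.12, -0.52 ± 1.52 and -0.26 ± 0.74. The 95% interval for Egr1 was -2.11 to 2.93, and without day 2 replicate 1 it was -0.55 to 1.37. Poly-A spike means on day 1 were 10.46 to 12.45 against 4.63 and 4.88 in medium. Mean blood marker levels were 3.83 to 4.68 on day 1 against 2.76 to 2.84 in medium. The part of either in these differences was not tested.

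Between days of co-culture, no member was without overlap for day 2 against day 1 (12.4% of all genes were, 2.5% higher and 9.89% lower). The difference was -2.27 ± 0.87 for Junb (adjusted p = 0.378, limma) and -2.29 ± 1.36 for Jun (adjusted p = 0.459). Without day 2 replicate 1 that of Junb was -2.28 ± 1.03 (adjusted p = 0.548) and that of Jun -0.38 ± 0.64 (adjusted p = 0.923), while Egr1 went from -0.95 to 0.49 and Atf3 from -0.66 to 0.39. Leaving out day 2 replicate 3 in place of replicate 1 brought Junb past the threshold at -3.10 (adjusted p = 0.0357, limma), in a fit that called 15.5% of all genes. Leaving out day 2 replicate 2 moved it the other way, to -1.42 (adjusted p = 0.324, limma). The sign of the day 2 difference from day 1 held under all 22 alternatives for Fosl1, Jun and Junb, and turned under some for the other 6 members. Many of the 22, such as leaving out an array of another group, could not change the difference. For day 3 against day 1, Atf3 was wholly higher (0.94 ± 0.86) and Fosb wholly lower (-1.01 ± 0.87), 2 of 9 members beside 19.8% of genes (8.28% higher, 11.5% lower), and all 9 members had an adjusted p of 1 in limma. The all-gene median for day 2 against day 1 was -0.19.

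The 3 genes whose arrays ran most like a member were found by Pearson's r over the 13 arrays. For Fos they were Zfp36l1 (0.91), Synrg (0.90) and Scai (0.89), and Zfp36l1, which encodes a decay factor for AU-rich RNAs, kept 0.88 over the 12 arrays without day 2 replicate 1. For Junb they were Sbno2 (0.89), Bckdha (0.88) and Bmp1 (0.88), with 0.90, 0.88 and 0.88 over 12 arrays. For Fosl1 they were Pmpca (0.96), Ap1m1 (0.93) and Siah2 (0.92), with 0.97, 0.91 and 0.89. For Atf3 they were Mss51 (0.92), Cgnl1 (0.91) and Aox1 (0.89), with 0.83, 0.87 and 0.79. For Egr1 they were Stx3 (0.97), Atg14 (0.96) and Fam107b (0.95), which had 0.85, 0.77 and 0.70 over 12 arrays.

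Of 23 other immediate early genes tested, limma called 0 in each of the 7 comparisons, beside the shares of all genes given above. Gadd45b, a stress sensor, was nearest: it measured 8.72, 8.47 and 9.28 on day 0, 9.82 and 9.63 in medium and 10.91, 10.86 and 10.56 on day 1. All day 1 arrays lay above the other 5, by 1.95 ± 0.45 over day 0 (adjusted p = 0.0623, limma; 0.0135 without day 2 replicate 1). Btg2, an antiproliferative gene, measured 11.16, 11.47 and 11.50 on day 0 and 4.99 to 10.70 on the other arrays, and its day 2 difference was -3.38 ± 1.38 (adjusted p = 0.164, limma), or -1.88 ± 1.15 without day 2 replicate 1 (adjusted p = 0.343). Egr3, a relative of Egr1, measured 4.71, 5.79 and 5.17 on day 0 and 3.47 and 3.08 in medium, a difference of -1.95 ± 0.76 (adjusted p = 0.429). The list's median difference from day 0 was -0.18 in medium, -0.04 on day 1, -0.92 on day 2 (-0.37 without day 2 replicate 1) and 0.02 on day 3, the all-gene medians being those given above. Without that array limma called 2 of the 23: Gadd45b higher on day 1 against day 0, and Maff, a small Maf protein, higher on day 1 against medium (1.18 ± 0.24, adjusted p = 0.0174). Shares of all genes called in these comparisons were then 10.6% and 17.2%.

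Among upstream kinases and factors that induce Fos, Jun and Egr1, limma called 0 of 22 in every comparison over 13 arrays. The fit without day 2 replicate 1 called 4 for day 1 against day 0, 3 for day 3 against day 0, 4 for day 1 against medium and 0 in the other 4 comparisons, where 10.6%, 7.69% and 17.2% of all genes were called in the first 3; the genes named from that fit were chosen after their values were seen. In it the MAP kinase kinase gene Map2k1 fell on day 1 (-0.82 ± 0.21, adjusted p = 0.0438, limma) and day 3 (-1.14 ± 0.24, adjusted p = 0.0266) against day 0 and on day 1 against medium (-1.24 ± 0.24, adjusted p = 0.0132). Mapk9, which encodes the JNK2 kinase, fell on day 1 (-0.89 ± 0.16, adjusted p = 0.0150, limma) and day 3 (-1.12 ± 0.18, adjusted p = 0.0121) against day 0. Map2k6 fell on day 1 and Map2k4 on day 3 against day 0 (adjusted p = 0.0330 and 0.0223, limma). Mapk7, the gene of the kinase ERK5, rose on day 1 against day 0 (1.21 ± 0.30, adjusted p = 0.0417, limma) and medium (1.34 ± 0.34, adjusted p = 0.0312), and the ETS factor genes Elk1 and Elk3 rose on day 1 against medium (1.51 ± 0.42 and 1.18 ± 0.34, adjusted p = 0.0417 and 0.0449). Rps6ka5, the histone and CREB kinase MSK1, measured 7.98, 7.64 and 7.24 on day 0 against 5.24, 4.56 and 5.22 on day 1 (-2.61 ± 0.99, adjusted p = 0.211, limma). Srf, the factor at the serum response element, measured 8.83, 9.50 and 9.90 on day 0, 10.56 and 9.96 in medium and 8.31 to 10.51 in co-culture. The Egr1 co-repressors Nab1 and Nab2 were not called in any comparison with or without that array. Nab1 measured 9.84 and 9.53 in medium against 7.74, 7.98 and 7.17 on day 1 (-2.05 ± 0.85, adjusted p = 0.205, limma), and Nab2 7.30 and 7.29 against 5.77, 6.40 and 5.16 (-1.52 ± 0.63, adjusted p = 0.206).

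Of 18 bZIP partners and relatives, limma called 1 higher and 0 lower for day 1 against day 0 (2.15% of all genes were called). For day 1 against medium it called 2 higher and 1 lower (5.2% of genes), and it called 0 in the other 5 comparisons. Cebpb, which can pair with Atf4 and Fos, rose on day 1 to 10.69, 11.10 and 11.19 from 10.26, 9.71 and 9.44 on day 0 (1.19 ± 0.23, adjusted p = 0.0384, limma) and from 9.81 and 9.99 in medium (1.09 ± 0.26, adjusted p = 0.0444). Atf4, the factor of the integrated stress response, rose to 12.39, 12.91 and 13.08 from 10.13 and 11.07 in medium (2.19 ± 0.49, adjusted p = 0.0383, limma), although the mean of all its probe sets gave 0.37. Atf2, a Jun partner, fell to 8.63, 8.91 and 8.60 from 10.27 and 10.45 (-1.65 ± 0.39, adjusted p = 0.0456, limma). The fit without day 2 replicate 1 kept these 4 calls. Against day 0 it added Atf2 and Bach1 as lower on day 1, and Bach1 as lower and Cebpb as higher on day 3. It also added Creb1 as lower on day 1 against medium (adjusted p = 0.0157 to 0.0337 over these added calls, limma). All-gene shares called in that fit were 10.6% and 7.69% on days 1 and 3 against day 0, and 17.2% for day 1 against medium. These calls over 13 arrays were narrow. Leaving out any single medium or day 1 array ended each of them, the comparison of Cebpb with day 0 included, as did leaving out day 0 replicate 2 in each case, with adjusted p-values of up to 0.307. Removing day 0 replicate 3 also ended those of Atf4, Atf2 and Cebpb against day 0, and removing either day 3 array that of Cebpb against medium.

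Among 13 phosphatases and RNA decay factors of immediate early feedback, limma called 1 lower than day 0 on each of days 1, 2 and 3. Shares of all genes called there were 2.15%, 2.26% and 0.819%, and the list had 0 calls in the other 4 comparisons. The called gene was Dusp14 throughout, a dual-specificity phosphatase of MAP kinases. It lay at 3.74 to 4.10 on day 0, 3.18 and 2.84 in medium and 2.55 to 2.78 on the co-culture arrays. These later values lie near the lowest of the table, 2.28, and 5 of the 10 later arrays share a value with another. Every later array lay below every day 0 array. The size and error of the fall, on which the p-values rest, cannot be read from such values. The fitted differences were -1.21 ± 0.17 on day 1 (adjusted p = 0.0115, limma), -1.30 ± 0.17 on day 2 (adjusted p = 0.0114) and -1.28 ± 0.19 on day 3 (adjusted p = 0.0233). Leaving out day 0 replicate 2 ended all 3 calls (adjusted p = 0.0509, 0.0581 and 0.0806). On day 1, leaving out any day 1 array did so too (0.0544 to 0.0703), and on day 3 leaving out day 0 replicate 3, day 3 replicate 2 or any medium or day 1 array did (0.0524 to 0.0988). Dusp1, the phosphatase that switches off stress kinases, measured 12.70, 12.85 and 11.39 on day 0 and 11.32 and 11.27 in medium, with day 0 replicate 3 below the other day 0 arrays as for Fos (-1.02 ± 0.99, adjusted p = 0.946). Against day 0, the fit without day 2 replicate 1 called Dusp14 as lower in medium too (adjusted p = 0.0351, limma). It called Zfp36l1 lower on days 1, 2 and 3 (-1.16 ± 0.18, -1.02 ± 0.20 and -1.12 ± 0.20, adjusted p = 0.00841, 0.0408 and 0.0160, limma). Dusp16 and Zfp36l2 were called lower on day 3 (-2.28 ± 0.52 and -2.06 ± 0.51, adjusted p = 0.0355 and 0.0469, limma). That fit called 1.36%, 10.6%, 2.48% and 7.69% of all genes in medium and on days 1, 2 and 3 against day 0.

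Of 21 textbook AP-1 and Egr1 targets, limma called 0 higher and 1 lower in medium and 1 higher and 1 lower on day 1, against day 0. On day 2 it called 0 higher and 2 lower and on day 3 0 higher and 1 lower, again against day 0. It called 1 higher for day 1 against medium and 0 in the other 2 comparisons. Shares of all genes called were 0.328%, 2.15%, 2.26% and 0.819% against day 0, in that order, and 5.2% for day 1 against medium. Plaur, the urokinase receptor, measured 7.03, 7.47 and 7.28 on day 0, 7.43 and 7.24 in medium and 8.88, 10.12 and 9.80 on day 1. It rose by 2.34 ± 0.33 over day 0 (adjusted p = 0.0117, limma) and by 2.27 ± 0.37 over medium (adjusted p = 0.0145). Leaving out day 1 replicate 2 or 3 ended both calls (0.0621 and 0.0764 against day 0, 0.0565 and 0.0638 against medium), and leaving out medium replicate 1 or 2 ended that against medium (0.136 and 0.155). The fit without day 2 replicate 1 kept these calls and added Mmp14, a membrane-bound matrix protease, as lower on day 1 (-1.51 ± 0.35, adjusted p = 0.0309, limma) and day 3 (-2.05 ± 0.39, adjusted p = 0.0201) against day 0 and on day 1 against medium (-1.60 ± 0.39, adjusted p = 0.0273). It added Timp1, a protease inhibitor, as higher on day 1 against day 0 (1.31 ± 0.24, adjusted p = 0.0153, limma) and medium (1.16 ± 0.27, adjusted p = 0.0238). That fit called 10.6% and 7.69% of all genes on days 1 and 3 against day 0, and 17.2% for day 1 against medium.

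Dcn, the matrix proteoglycan decorin, passed as lower in all 4 comparisons with day 0. Levels went from 5.20, 5.12 and 5.07 to 2.80 and 2.78 in medium and 2.37 to 2.86 in co-culture. The later values lie at the bottom of the table, whose lowest value is 2.28 and whose filter value is 2.38, and 7 of the 10 later arrays share a value with another, so again the size and error of the fall cannot be read from them. The fitted differences were -2.34 ± 0.22 in medium (adjusted p = 0.00321, limma), -2.61 ± 0.20 on day 1 (adjusted p = 0.00139), -2.50 ± 0.20 on day 2 (adjusted p = 0.00145) and -2.52 ± 0.22 on day 3 (adjusted p = 0.00295). Leaving out medium replicate 1 or 2 ended the call in medium (0.0554 and 0.0533). Tnc, the matrix protein tenascin C, fell on day 2 by 5.15 ± 1.10 (adjusted p = 0.0494, limma), from 12.18, 11.16 and 10.07 on day 0 to 3.17, 6.58 and 8.22. Without day 2 replicate 1, the lowest of these, it fell by 3.74 ± 0.71 (adjusted p = 0.0404, limma). Leaving out any of 11 arrays, that is all but day 2 replicates 1 and 3, ended the call of Tnc (0.0615 to 0.155). Mean blood marker levels were 2.86 to 2.97 on day 0 and 5.09 to 8.60 on day 2, and their part in these differences was not tested.

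**Figure D4:**
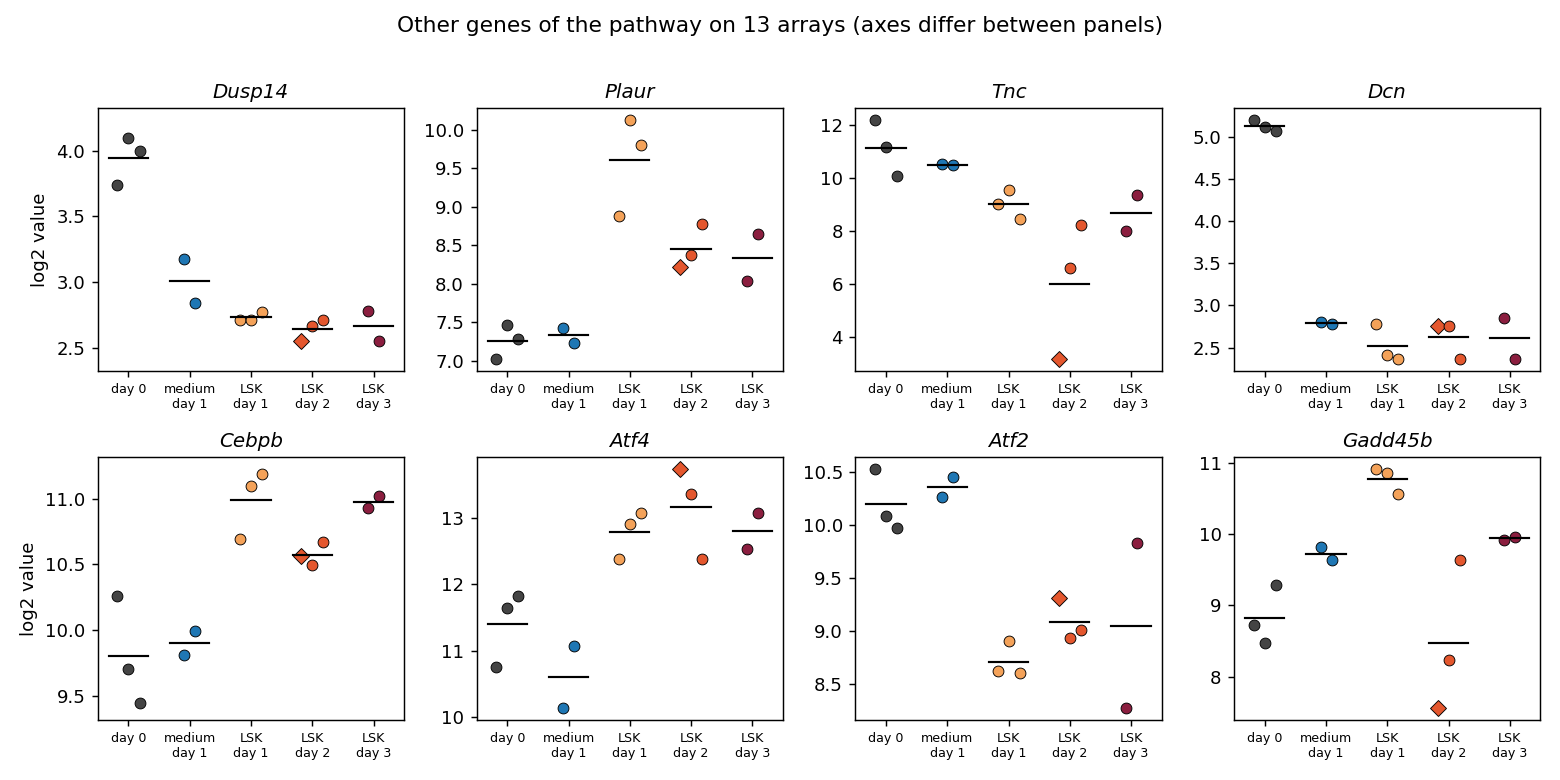
Log2 level (vertical axis, its range differing between panels) on the 13 arrays of Dusp14, Plaur, Tnc, Dcn, Cebpb, Atf4, Atf2 and Gadd45b, by group; each point is an array, the bar is the group mean and the diamond is day 2 replicate 1. Dcn and Dusp14 lie below day 0 on every later array, and Plaur lies highest on the 3 day 1 arrays.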

How the data were processed

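Expression was measured on 13 arrays with 45101 probe sets, of which 64 controls were left out of the gene tests. Their range of 2.28 to 15.7 shows that the authors deposited log2 values. RMA and GCRMA are named, per the submitters' processing notes, without saying which made the values or with which version. Values were used as deposited. Of the other probe sets, 34945 had 1 gene symbol, 932 several and 9160 none in the platform annotation. Probe sets above the pooled median of 2.38 on at least 2 arrays entered (25216), and each of the 12205 genes kept the probe set with the highest mean.

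Group means were fitted to the 13 arrays with limma 3.58.1 (lmFit and eBayes, R 4.3.3), a step that was tested on simulated data. Correlations and motif searches are descriptions; promoters came from RefSeq's table, searched with Python 3.11.15. All 9 member symbols matched RefSeq. Named genes were the 9 members, the called genes of 6 pathway lists with the largest change (at most 4 a list and comparison, or at most 2 where none was called) and 3 genes most like Fos, Egr1, Atf3, Junb and Fosl1; Srf and the values of further list members were chosen after they were seen. Members and lists were chosen with earlier results of these data known. Alternatives changed the filter, scaling, probe set rule, variance model, arrays in the fit and replicate block, and left out each array in turn. The number of arrays limits the precision.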

Additional observations from a re-analysis of the deposited data

How the results depend on the processing

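The count of members called was 0 in all 7 comparisons without a filter, with a filter in at least 3 arrays, after quantile normalization or median centring, with the mean of probe sets, an intensity trend, only the compared groups, or the replicate block. Leaving out each array in turn gave 0 to 1 for medium, day 1 and day 3 against day 0, 0 to 3 for day 2 against day 0, 0 to 1 for day 2 against day 1 and 0 to 0 for the other 2. The 3 calls on day 2 came without day 2 replicate 3, which leaves the doubted replicate 1 with a single partner: Fos -2.84 (adjusted p = 0.0220, limma), Jun -5.16 (0.0167) and Junb -2.60 (0.0434), in a fit that called 28.7% of all genes. With day 2 replicate 1 and day 3 replicate 2 both left out, chosen after seeing the data, 2 members, Fosl2 (0.0286 and 0.0307) and Atf3 (0.0355 and 0.0494), were called for medium and for day 1 against day 0, where 3.04% and 13.6% of all genes were.

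No pairing by replicate number was seen: 23 same-numbered pairs of arrays had correlations of -0.371 to 0.261 in their deviations from group means, and 44 other pairs -0.379 to 0.381. In groups of 2 or 3 arrays such deviations depend on each other, so this check cannot show whether arrays shared a preparation. With the replicate number as a block, 0 members were called, and the calls over all genes went from 40, 263, 276 and 100 for medium and days 1, 2 and 3 against day 0 to 8, 103, 26 and 4, and from 635 to 208 for day 1 against medium.

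Median centring moved the all-gene median by over 0.1, to 0.14 for day 1, 0.59 for day 2 and 0.24 for day 3 against day 0, 0.14 for day 1 against medium and 0.55 for day 2 against day 1. It ended the calls of Dusp14 on day 1 (adjusted p = 0.301), day 2 (0.486) and day 3 (0.518) and of Dcn in medium (0.279), on day 2 (0.103) and on day 3 (0.152). A fit of the compared groups alone ended those of Dusp14 on day 2 (0.305) and day 3 (0.0805) and of Dcn on day 2 (0.146) and day 3 (0.0516). The replicate block ended those of Dusp14 on day 2 (0.0543) and day 3 (0.101), and quantile normalization that on day 3 (0.0519). Of 9 settings that kept all planned arrays or left out both doubted ones, 4 ended each call of Tnc, Atf4 and Cebpb and 5 that of Atf2. Quantile normalization moved the calls for day 1 against day 0 from 101 higher and 162 lower to 154 and 148, for day 2 against day 0 from 78 and 198 to 105 and 124, and for day 1 against medium from 263 and 372 to 369 and 320. Under the 22 alternatives every member kept its sign against day 0 except Jund in medium (18 of 22), Fosl1 on day 2 (20) and day 3 (20) and Junb on day 3 (16). Many of these could not change a member's difference: the other filters, the intensity trend, the fit of compared groups and leaving out an array of another group. Their unchanged signs therefore say nothing on how firm a sign is.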
